A study of Mus musculus with 4 samples.

Results

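The regions described here were distal FAIRE-positive regions of EpRas cells that were called without TGF-β, were absent from the peak list of control cells treated with TGF-β, and were called again when TGF-β was given to cells transfected with siRNAs for Etv4 and Etv5. A region of the untreated list was kept when it lay on an autosome, when its middle was more than 2 kb from every annotated transcription start site (TSS), when no peak of the TGF-β list overlapped it by 1 bp, and when a peak of at least 1 knockdown list did. By this rule 853 regions were found among 13267 distal autosomal regions of the untreated list, which held 22247 regions, and among 88442 peaks in all 4 lists. The members were therefore chosen by the same calls that give their peak heights, so that heights and calls are given as a description without a test.

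EpRas cells are mouse mammary gland epithelial cells (the EpH4 line) that express an active H-Ras, and this 1 cell line was the source of all 4 lists. All cells were cultured for 4 days and were transfected with siRNA. One peak list came from cells with control siRNA and no TGF-β, and 1 from cells with control siRNA and 1 ng/ml TGF-β3. The last pair of lists came from cells with 1 ng/ml TGF-β3 and either set 1 or set 2 of the siRNAs for both Etv4 and Etv5, and no knockdown list without TGF-β is part of the comparison. A library is used below for the reads behind 1 list, which may pool biological replicates. With 1 peak list per group there was no replicate check, and no p-value was computed between conditions. The amount of Etv4 and Etv5 left after knockdown cannot be read from a peak list.

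FAIRE (formaldehyde-assisted isolation of regulatory elements) recovers DNA that is not bound tightly by nucleosomes after crosslinking, shearing and phenol extraction. Open regions far from promoters are often enhancers, which bind transcription factors such as AP-1, RUNX and TEAD, or sites of CTCF, a zinc finger protein that forms boundaries of chromatin loops. Etv4 and Etv5 are members of the PEA3 subfamily of ETS factors, which bind DNA around a GGAA core and are induced by Ras-ERK signaling, whereas TGF-β signals through SMAD proteins and induces the epithelial-mesenchymal transition (EMT) in Ras-transformed mammary epithelium. Because FAIRE was performed on whole cell populations, fewer cells with an open region and less opening per cell cannot be told apart.

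The 4 libraries had estimated depths of 15.3 to 20.7 M reads (M, 1e6), and the library with set 2 was the deepest, although its list was the shortest with 14925 peaks. The TGF-β list of the control cells was the longest with 28754 peaks. Peak lists of unequal length and depth differ in how many regions they call, which bears on every count below. As a check of the cell type, regions within 2 kb of the TSS of 2 of 7 epithelial genes, Krt8 and Krt14, were called in all 4 lists. Those of Krt18 and Cldn4 were called in all lists but that of set 2, and that of Cdh1 (E-cadherin) only in the untreated list, at a summit 8.10 times its local background, and in the set 2 list, at 7.39 times. None was called at Krt5, at the leukocyte genes Ptprc and Cd3e, at the endothelial gene Cdh5, at the liver gene Alb or at the globin gene Hbb-bs. A region at the endothelial gene Pecam1 was called in the TGF-β list of the control cells only, and one at the epithelial gene Epcam in the untreated list only.

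The sequences of 8 members are given first, as 5′ to 3′ on the plus strand of mm10, with the letters of motif matches in capitals. They were picked, after their values were seen, from the members named for the highest untreated fold enrichment over local background. They cover regions called with both sets or with 1 set and regions with and without matches. The patterns in capitals are AP-1 (TGANTCA), CTCF (CC, any 3 bases, AGG, any base, GGC) and ETS (CCGGAAG or CAGGAAG), on either strand. Around Cd82, Wnt7b and the lincRNA Gm48483 the peak held a CTCF match, and at Shd it held no match to these patterns.

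Shd, chr17:55976452-55976626: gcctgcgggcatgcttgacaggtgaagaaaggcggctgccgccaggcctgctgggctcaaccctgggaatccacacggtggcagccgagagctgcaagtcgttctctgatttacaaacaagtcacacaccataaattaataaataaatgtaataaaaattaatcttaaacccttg
Cd82, chr2:93475112-93475290: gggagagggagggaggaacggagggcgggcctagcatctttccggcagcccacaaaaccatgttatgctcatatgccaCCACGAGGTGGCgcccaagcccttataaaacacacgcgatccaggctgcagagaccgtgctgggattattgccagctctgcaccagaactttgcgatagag
Wnt7b, chr15:85610648-85610826: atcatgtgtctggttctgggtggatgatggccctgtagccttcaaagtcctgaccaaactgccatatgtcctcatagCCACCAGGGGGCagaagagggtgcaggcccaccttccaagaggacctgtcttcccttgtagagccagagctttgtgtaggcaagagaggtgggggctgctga
Gm48483, chr10:18904243-18904398: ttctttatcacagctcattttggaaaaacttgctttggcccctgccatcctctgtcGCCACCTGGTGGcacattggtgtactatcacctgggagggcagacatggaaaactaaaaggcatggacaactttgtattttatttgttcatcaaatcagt

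The other 4 are the members with the highest untreated fold enrichment among those with an ETS match inside the peak. A pair of them, near Gm14282 and Mir1966, held a match to the CTCF pattern given above beside the ETS match.

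Mir466f-4, chr13:71150121-71150369: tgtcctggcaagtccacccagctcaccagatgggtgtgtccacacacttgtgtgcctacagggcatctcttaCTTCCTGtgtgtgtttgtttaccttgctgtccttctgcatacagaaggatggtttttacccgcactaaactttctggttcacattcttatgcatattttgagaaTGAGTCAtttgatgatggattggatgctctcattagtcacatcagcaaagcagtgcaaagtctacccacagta
Wnt10a, chr1:74787941-74788095: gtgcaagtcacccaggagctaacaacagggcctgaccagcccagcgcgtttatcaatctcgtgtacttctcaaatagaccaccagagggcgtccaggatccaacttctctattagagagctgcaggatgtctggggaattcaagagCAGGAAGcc
Gm14282, chr2:131828119-131828315: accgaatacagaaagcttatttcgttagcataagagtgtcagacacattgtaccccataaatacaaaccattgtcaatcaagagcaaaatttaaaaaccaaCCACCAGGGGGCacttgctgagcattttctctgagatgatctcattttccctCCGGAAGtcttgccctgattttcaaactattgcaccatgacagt
Mir1966, chr8:105622494-105622654: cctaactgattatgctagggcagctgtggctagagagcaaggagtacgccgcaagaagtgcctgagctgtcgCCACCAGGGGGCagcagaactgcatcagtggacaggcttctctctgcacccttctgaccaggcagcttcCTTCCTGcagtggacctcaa

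Of the 13267 distal regions, 2899 (21.9%) were absent from the TGF-β list of the control cells. Of these 2899, 668 (23.0%) were called with set 1, 360 (12.4%) with set 2, 853 (29.4%) with either set and 175 (6.04%) with both. The 10368 distal regions that were still called with TGF-β in control cells had higher shares in each list, which were 78.6% with set 1, 58.3% with set 2, 83.5% with either set and 53.4% with both sets. The members were thus a small part of what the knockdown lists shared with the untreated list. Among the 853 members, 493 were called with set 1 alone (57.8%, 95% Wilson interval 54.5 to 61.1), 185 with set 2 alone (21.7%, 19.1 to 24.6) and 175 with both (20.5%, 17.9 to 23.4). Of the lost regions called with set 1, 26.2% (23.0 to 29.7) were also called with set 2, compared with 8.29% (7.22 to 9.51) of those not called with set 1. At the regions still called, 5537 of the 8148 called with set 1 were also called with set 2, against 6043 of all 10368. Here the comparison was with all regions still called, including those called with set 1, unlike that for lost regions. Such an overlap of both sets was thus not particular to lost regions. All these figures come from libraries that share 1 untreated list and 1 TGF-β list, and all intervals cover counting error over regions only.

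In the untreated library the members had 10 to 53 fragments at the summit, with a median of 18 and quartiles of 16 and 21, which was 1.18 fragments per M reads at the median. Their fold enrichment, the summit height over the local background, ran from 2.81 to 15.2 with a median of 7.82 (quartiles 6.90 and 8.88), and their median width was 150 bp. The lost regions that were not called again had a median of 17 fragments, a fold enrichment of 7.61 and a width of 141 bp, and the regions still called had 21, 7.98 and 183 bp. The members therefore lay between both other classes in height and width, as a description of what the calls selected. A total of 234 members (27.4%) reached in the untreated library at least the median height per M reads of distal TGF-β peaks, and 201 (23.6%) were at or under the 10th percentile of those peaks.

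Where set 1 called the members, in 668 regions, the median was 19 fragments and a fold enrichment of 7.61, and where set 2 called them, in 360 regions, it was 19 fragments and 7.50. Per M reads these medians were 1.10 with set 1 and 0.920 with set 2, compared with 1.18 in the untreated library. In the 175 members called with both sets the median fold enrichment was 8.29 untreated, 7.69 with set 1 and 7.42 with set 2. Set 1 was above the untreated value in 70 of these 175 regions and set 2 in 47, and set 1 was above set 2 in 112 (64.0%). Most of these regions were thus lower with the knockdown than without TGF-β, also relative to local background. Over all members that a set called, the median difference in log2 fold enrichment from the untreated library was −0.05 with set 1 and −0.15 with set 2, and at the regions still called it was −0.00246 and −0.22. The summits lay close together, with a median offset from the untreated summit of 22 bp with set 1 and 21 bp with set 2.

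**Figure D1:**
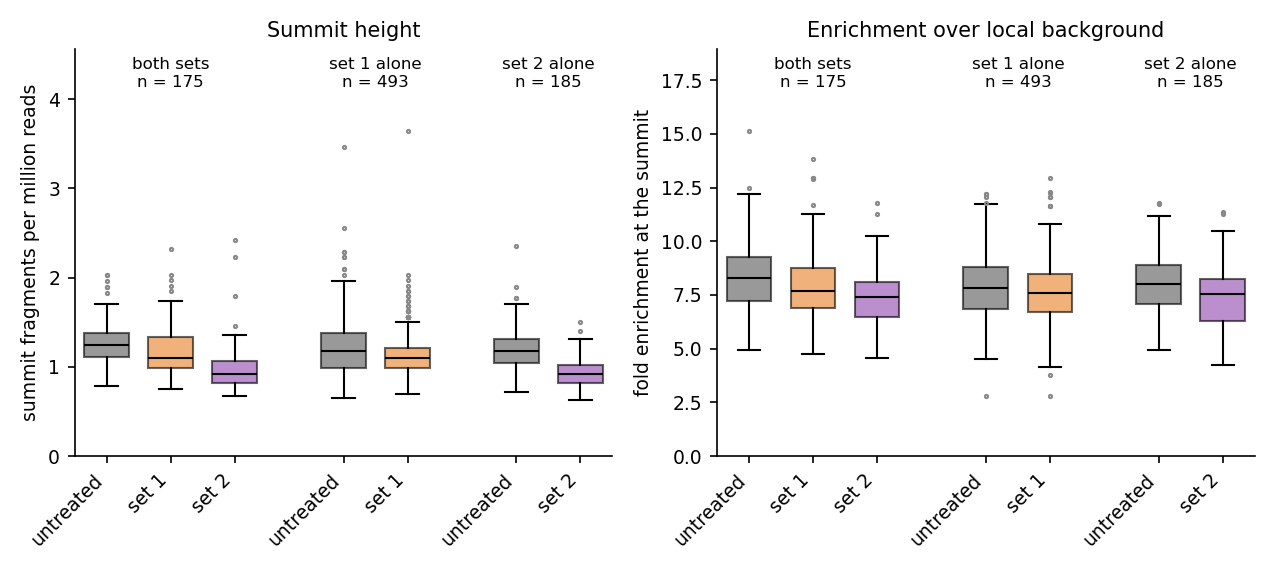
Fold enrichment over local background at the members in the untreated library and in the libraries with set 1 and set 2, for the members that each library called. The medians were 7.82, 7.61 and 7.50, and the ranges overlapped over most of their length; the TGF-β library of the control cells has no value because the rule requires that it called none.

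The edges of the rule were close. The member nearest to a TGF-β peak, at chr8:64155798-64155925, lay 21 bp from it, with 17 fragments and a fold enrichment of 7.48. The region just outside, at chr11:61597397-61597524, overlapped a TGF-β peak by 4 bp, with 20 fragments and a fold enrichment of 5.92. The median distance to the nearest TGF-β peak was 12988 bp, and 44 members (5.16%) had such a peak within 500 bp, as did 92 (4.50%) of the lost regions not called again. At the other edge, the member closest to a TSS was 2023 bp away, and the nearest region left out for its distance was 1996 bp away. The lowest −log10 q among the members was 5.00, in an intron of Met.

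The members called with both sets that are named here were picked for the highest untreated fold enrichment, so that lower values in the knockdown libraries are favored by the choice. The highest was in an exon of Shd, which encodes an SH2 domain adaptor, with 30 fragments and a fold enrichment of 15.2 in the untreated library. It had 17 fragments and 8.04 with set 1, and 20 fragments and 8.82 with set 2. The region 12.3 kb upstream of Cd82, which encodes a tetraspanin known as a suppressor of metastasis, had a fold enrichment of 12.2 untreated, 9.35 with set 1 and 9.76 with set 2. In both regions the knockdown values were close to each other and under the untreated value. The region 8.47 kb upstream of the antisense gene Gm11837 had 11.7 untreated, 12.9 with set 1 and 6.72 with set 2. Another 4 regions, near Gm8251, Gm32171, Ankfn1 and Gm49404, ranged from 11.2 to 11.97 untreated, from 7.85 to 9.57 with set 1 and from 7.56 to 8.47 with set 2.

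Regions called with 1 set had heights of the same range. With set 1 alone, the region 28.3 kb upstream of Wnt7b, which encodes a secreted Wnt ligand, had a fold enrichment of 11.8 untreated and 7.44 with set 1. Introns of Corin, a membrane serine protease, and of P3h2, a collagen prolyl hydroxylase, each had 12.2 untreated, and 8.04 and 8.44 with set 1. With set 2 alone, the region 2.26 kb upstream of Card14, which encodes a scaffold protein of NF-κB signaling in keratinocytes, had 11.7 untreated and 7.13 with set 2. A region in the Hoxc10 and Hoxc5 locus of homeobox genes, 2.38 kb upstream of Mir196a-2, had 11.2 untreated and 8.82 with set 2. The Gm48483 region had 10.8 and 9.24. Absence from the other knockdown list means that no peak was called there, not that the signal was 0.

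**Figure D2:**
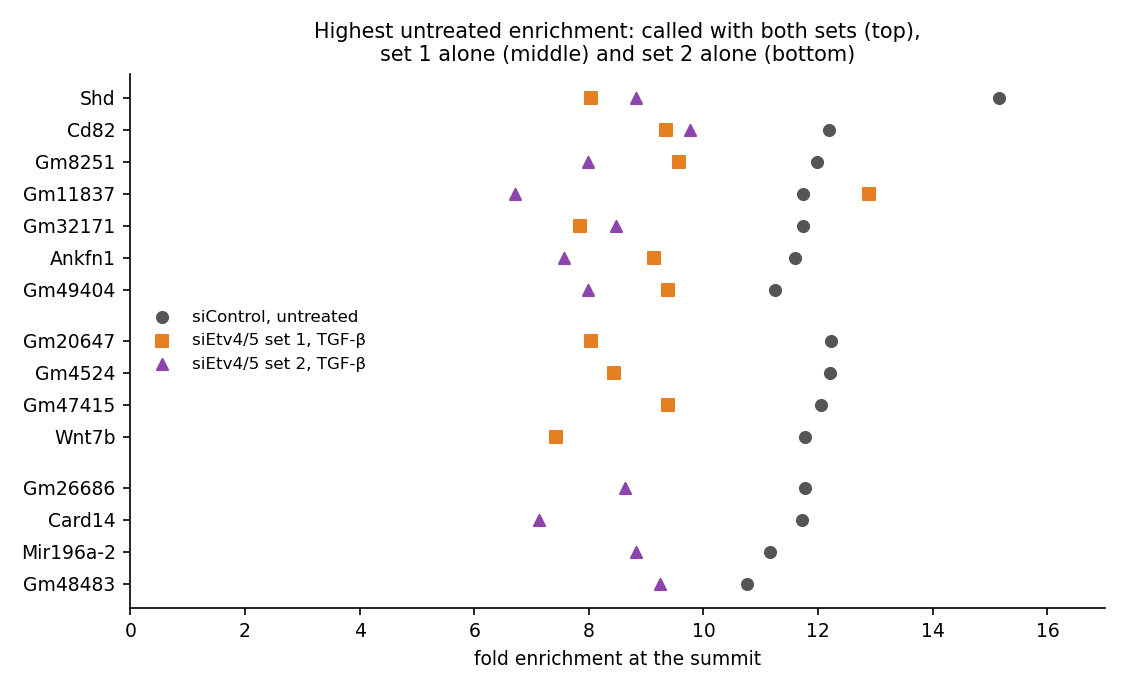
Fold enrichment of the strongest members in the untreated library and in the libraries with set 1 and set 2, one row per region named by its nearest or containing gene. The Shd region had the highest untreated value, 15.2, and the Gm11837 region had a set 1 value, 12.9, above its untreated value of 11.7.

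The ETS-containing regions were of interest because the knockdown was directed at ETS factors. The Wnt10a region, 3.50 kb upstream of a gene for another Wnt ligand, had a fold enrichment of 10.3 untreated and 11.3 with set 2, and it was not called with set 1. Near Mir466f-4 the values were 11.3 untreated and 10.3 with set 1, and near Gm14282 they were 10.1 untreated and 7.24 with set 2. The Mir1966 region, in an intron of Agrp, was called with both sets and had 10.1 untreated, 7.60 with set 1 and 8.36 with set 2. Over all members, 199 of 853 (23.3%, 20.6 to 26.3) held an ETS match within 500 bp around the middle of the peak, compared with 21.0% in windows 5 kb to either side. The share was 22.4% in lost regions not called again, a difference of 0.944 percentage points (Newcombe 95% interval −2.34 to 4.38), and 28.8% in regions still called, a difference of −5.42 (−8.28 to −2.35). With lists of equal length, the lists being cut to the 14925 peaks of lowest q, these differences were 4.10 (1.15 to 7.06) and −3.15 (−5.68 to −0.540). The TGF-β list of the control cells was cut as well, so that a region counted as lost could have a peak in its full list. With CCGGAA as the pattern, 8.79% of members and 5.45% of their flanks held a match, the difference from regions still called was 0.488 (−1.32 to 2.64), and that from lost regions not called again was 2.88 (0.833 to 5.17). The ETS comparisons thus depended on the pattern and on list length.

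CTCF matches stood out from the flanks. They were found in 176 members (20.6%, 18.1 to 23.5), compared with 1.88% of their flanks, 16.7% of the lost regions not called again and 7.69% of the regions still called. The difference from regions still called was 12.9 percentage points (10.3 to 15.8). Over 5 ranges of summit fragments, within which heights could still differ, it was 11.95 (9.20 to 14.7). The difference from lost regions not called again was 3.97 (0.888 to 7.21), and it was −4.61 (−7.11 to −2.09) when all lists were cut to the length of the shortest. With lists of equal length the difference from regions still called was 7.22, in the same direction. The CTCF share was thus higher in members than in regions still called. The direction of the difference from the other lost regions depended on the cut of the lists, which also changed which regions counted as lost. Of 179 matches within 250 bp of the untreated summits of members, 154 (86.0%) lay within 50 bp of the summit, at a median distance of 16 bp.

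The letters that the CTCF pattern leaves free were unevenly filled. Of 180 matches, 78.3% had A at the third position, compared with 37.3% of 469 matches in the flanks of all distal regions. The share was 78.6% in lost regions not called again and 70.8% in regions still called, so that it was not particular to members. Only 8 of the 180 matches (4.44%) held a base masked as repeat.

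AP-1 matches were also above their flanks, but were less frequent in members than in regions still called. They were found in 263 members (30.8%, 27.8 to 34.0), compared with 13.7% of their flanks, 28.6% of the lost regions not called again and 60.3% of the regions still called. The difference from regions still called was −29.4 percentage points (−32.6 to −26.1), over strata of summit height −28.0 (−31.2 to −24.7), and −18.7 with lists of equal length. The difference from lost regions not called again was 2.24 (−1.37 to 5.95), within counting error, but it was 15.3 (12.04 to 18.6) with lists of equal length. RUNX matches (TGTGGTT or TGCGGTT) were found in 13.0% of members, about as in their flanks (13.2%), and in 19.2% of regions still called, a difference of −6.17 (−8.40 to −3.63) that was −2.75 (−4.89 to −0.503) with lists of equal length. In lost regions not called again the RUNX share was 17.1%, and the difference of −4.09 (−6.79 to −1.21) was 1.43 (−1.09 to 3.97) with lists of equal length.

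**Figure D3:**
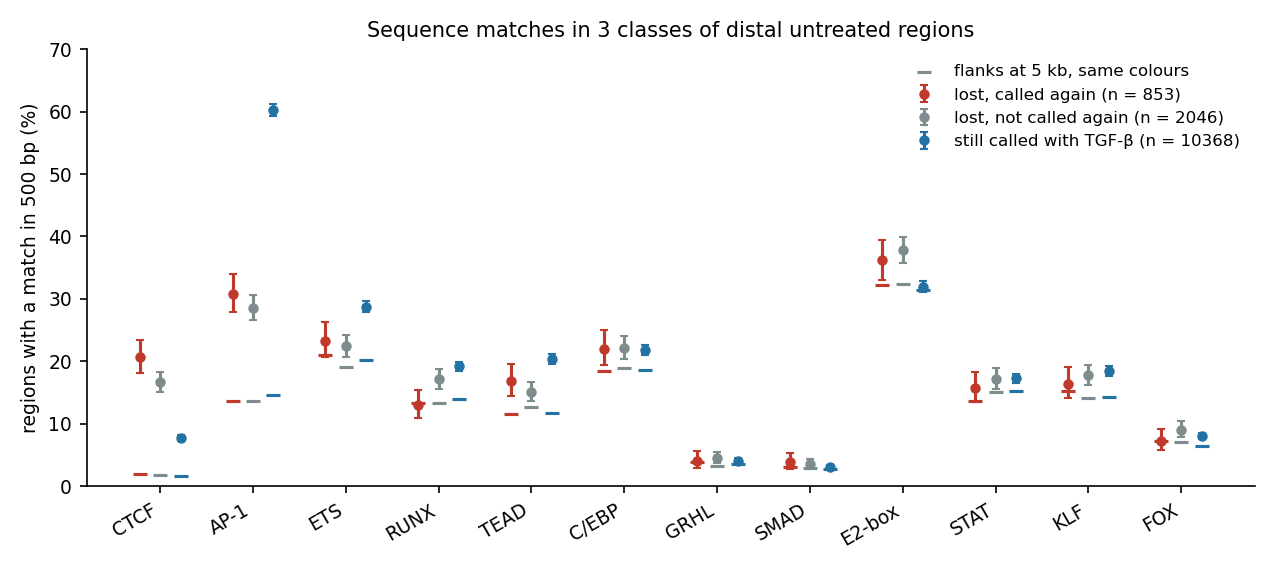
Percent of regions with a match to each of 12 patterns within 500 bp around the peak middle, for members, lost regions not called again and regions still called with TGF-β, with 95% Wilson intervals and the share in flanks. CTCF was found in 20.6% of members and 7.69% of regions still called, and AP-1 in 30.8% and 60.3%.

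In all, 16 patterns were compared. Against the regions still called, the 95% interval of the difference left out 0 for 6 patterns, and for 4 of them (AP-1, CTCF, RUNX and ETS) when the interval was widened for 16 comparisons. The other pair was TEAD, lower in members by −3.50 percentage points, and the E2-box CACCTG, which is bound by Snail and ZEB factors, higher by 4.31. Against the lost regions not called again, the intervals of 2 patterns, CTCF and RUNX, left out 0, and of 0 patterns after widening. The SMAD pattern, GTCT and GAC with any 1 base between, was found in 3.87% of members and 3.05% of flanks. The intervals for C/EBP, NF1, GRHL, SMAD, p53/p63, KLF, STAT, GATA, FOX and SP included 0 in both comparisons. The NF1 pattern matched 0 members, 1 lost region not called again and 9 regions still called, too few to show a difference. The p53/p63 pattern matched only 7 members.

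**Figure D4:**
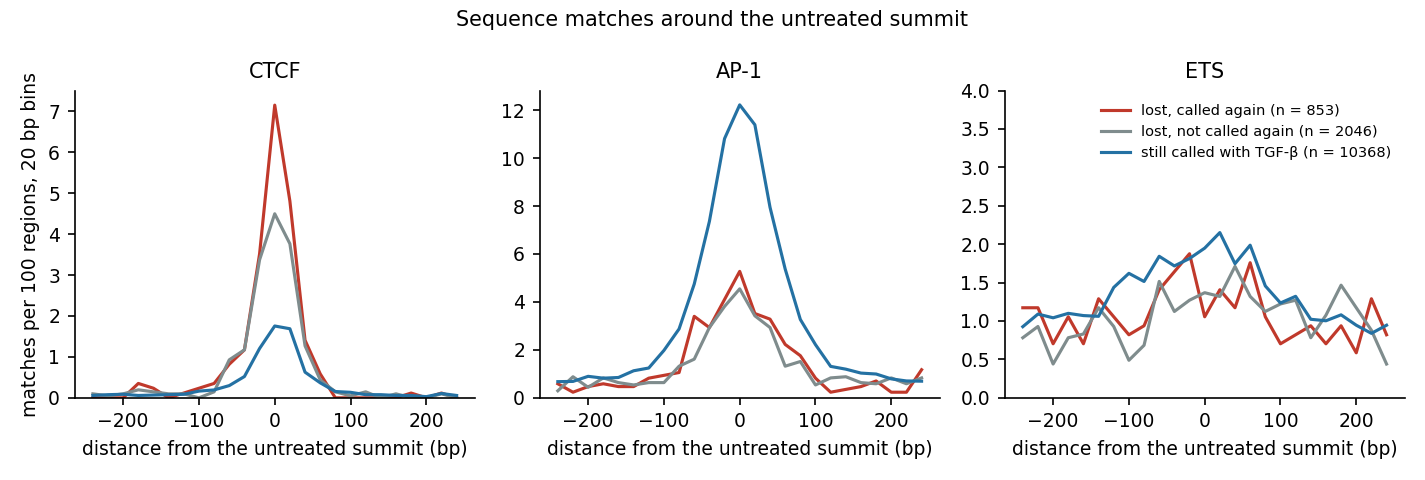
CTCF, AP-1 and ETS matches per 100 regions in 20 bp bins of distance from the untreated summit, for members, lost regions not called again and regions still called. In members 86.0% of the CTCF matches shown lay within 50 bp of the summit, compared with 52.6% of AP-1 and 26.4% of ETS matches.

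Sorted by motif, regions differed in how often they were lost. The classes rest on the CTCF pattern given above, which 20.6% of members matched. When 1 base of it was freed, 36.2% of members matched, so regions without a match here can hold a looser one. Of 1028 distal regions with a CTCF and no AP-1 match, 444 (43.2%) were absent from the TGF-β list, compared with 775 of 6812 (11.4%) with AP-1 and no CTCF match, 73 of 286 (25.5%) with both and 1607 of 5141 (31.3%) with neither. In the untreated library these classes had medians of 18, 21, 19 and 19 summit fragments, so that the shares were not compared at equal height. Once lost, the shares called again with either set were 34.5% (30.2 to 39.0) of those with CTCF alone, 31.0% of those with AP-1 alone, 31.5% of those with both and 27.2% of those with neither. Members with CTCF alone had a median fold enrichment of 8.62 untreated, 8.27 with set 1 and 7.98 with set 2, and members with AP-1 alone had 7.10, 7.21 and 6.37. Both groups of members had a median of 18 summit fragments. Their median untreated background was 82.0 reads in 10 kb at the former and 114 at the latter. The value of 82.0 was near the floor of the background in that library, 81.7. The higher fold enrichment of the former thus went with a lower background at the same median height.

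The members were also described by the set that called them, which the rule used, in lists of unequal length. The AP-1 share was 33.1% for set 1 alone, 22.7% for set 2 alone and 33.1% for members called with both. The CTCF shares were 19.9% for set 1 alone, 25.4% for set 2 alone and 17.7% for both. Over the whole lists, the share of distal regions with a CTCF match was 9.90% in the untreated list and 6.85% in the TGF-β list of the control cells, and the lists of set 1 and set 2 had 6.96% and 6.83%. The AP-1 shares of the same lists were 53.5%, 60.5%, 61.2% and 62.0%, and the RUNX shares 18.5%, 19.1%, 19.5% and 19.7%. For CTCF and AP-1 both knockdown lists were thus closer to the TGF-β list than to the untreated list. The ETS shares were 27.4%, 27.2%, 27.6% and 29.9%. For ETS the intervals of the untreated list (26.7 to 28.2) and the TGF-β list (26.5 to 27.8) overlapped. Those for RUNX (17.8 to 19.1 and 18.6 to 19.7) overlapped as well, so that closeness to either list is not read for these patterns. The ETS share of set 2 (29.0 to 30.9) was above those of both control lists.

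**Figure D5:**
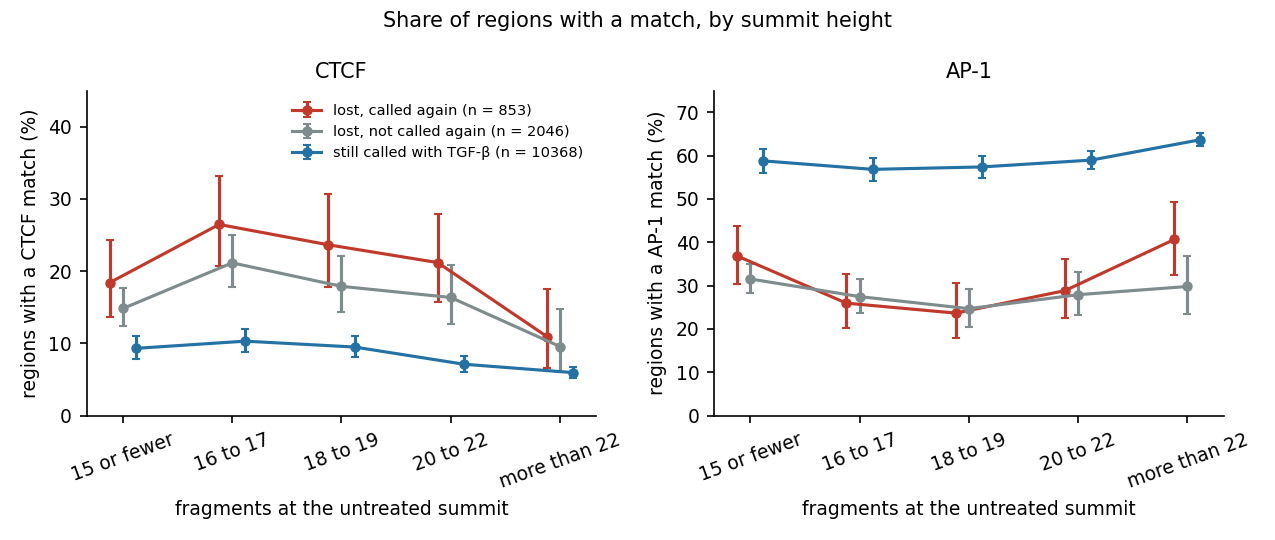
Share of regions with a CTCF or AP-1 match in 5 classes of summit fragments in the untreated library, with 95% Wilson intervals. In each class the CTCF share was higher in members, 10.9% to 26.5%, than in regions still called, 5.94% to 10.3%.

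By annotation, 433 members (50.8%) lay between genes, 388 (45.5%) in introns and 32 (3.75%) in exons. The share between genes was 45.3% in lost regions not called again, a difference of 5.50 percentage points (1.51 to 9.48), and 46.3% in regions still called, a difference of 4.46 (0.970 to 7.93). The members were spread over the genome, with 827 distinct genes at their nearest TSS and 9 pairs of neighbors within 10 kb. The nearest TSS was that of a protein-coding gene for 410 (48.1%). Their GC content had a median of 46.2%, and a median of 11.4% of the 500 bp was masked as repeat.

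Members at genes of the EMT and of its signaling pathways are described by list. Across 8 gene lists with 308 annotated genes, 17 genes had a member. Of 62 lost regions at these genes 17 (27.4%) were called again, close to the 29.4% of all lost regions, and 4 of these 17 regions had a CTCF match in the peak, 8 an AP-1 match and 2 an ETS match. Among epithelial junction and polarity genes, 15 regions were lost and 2 called again, at Cldn7, a tight junction claudin, and Tjp3, a tight junction scaffold. Cldn7 had a fold enrichment of 7.13 untreated and 6.55 with set 1, and Tjp3 had 7.81 untreated and 7.38 with set 2. Among keratins, laminins and integrins, 3 of 9 lost regions were called again, near Cd82, in the cytoskeletal linker gene Dst and near Krt8. The Krt8 region, with both an AP-1 and an ETS match in the peak, had 29 fragments and a fold enrichment of 7.01 untreated, and 27 fragments and 5.77 with set 2. The counts of single lists are too small to be read against the 29.4% of all lost regions.

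Among epithelial transcription factors, 3 of 6 lost regions were called again. A region in an intron of Stat3 that was nearest to the TSS of Stat5a, with a CTCF match, had a fold enrichment of 10.3 untreated, 9.38 with set 1 and 8.40 with set 2. Regions at Sox9, a factor of epithelial progenitors, and Ppard, a nuclear receptor, had 7.33 and 6.43 untreated and 6.31 and 6.08 with set 1. Among EMT transcription factors, 2 of 4 were called again. The region 4.33 kb upstream of Snai2, which encodes the repressor Slug, held a CTCF match and had 8.47 untreated, 8.10 with set 1 and 7.45 with set 2. The region near the forkhead gene Foxq1 had 6.91 untreated and 6.54 with set 1.

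Among matrix, protease and cytoskeleton genes of mesenchyme, 3 of 8 lost regions were called again. An intron of the collagen IV gene Col4a2 had a fold enrichment of 6.69 untreated and 7.04 with set 1, and a region upstream of the gelatinase gene Mmp9 had 6.06 and 6.63. In the list of the TGF-β and BMP pathway, 2 of 7 were called again. They lay in introns of Ltbp2, a matrix protein gene of the latent TGF-β binding protein family, and Pmepa1, a feedback inhibitor of SMAD signaling. Ltbp2 had 7.10 untreated and 5.37 with set 2, and Pmepa1 had 5.52 untreated and 5.11 with set 1. In the Ras-ERK list, 2 of 10 were called again. The intron of Map2k1, which encodes the kinase MEK1, had 11 fragments and 5.82 untreated, and 23 fragments and 10.7 with set 1. The intron of the receptor gene Met had 4.79 untreated and 5.32 with set 1. Of 48 distal regions at AP-1, RUNX and TEAD-YAP genes, 3 were lost and 0 of these were called again.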

How the data were processed

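FAIRE DNA from each group was sequenced on an Ion Proton, mapped to mm10 with Bowtie, and peaks were called by the authors with MACS2 (version 2.1.0 in the submitters' processing notes). The study describes biological replicates, and whether each of these lists pools them is not given in the sources used here; the deposited lists carry pairs of numbers in their names that may stand for merged libraries. The deposited lists hold per peak a score, the fold enrichment, the −log10 p, the −log10 q and the summit. Summit fragments and the local background were solved from the deposited fold and −log10 p, and 100% of the solved values came out whole within 0.05 in every list. Depth was estimated from the lowest background, a genome of 1.87 Gb and the fragment length taken as the shortest peak. These intervals cover counting error only.

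TSSs and gene bodies were those of the GENCODE vM21 basic annotation for mm10. Motif letters were searched on both strands in 500 bp around the peak middle and in windows 5 kb to either side. Shares carry Wilson intervals and differences Newcombe intervals. Named regions were the 8 members called with both sets and the 4 called with each set alone that had the highest untreated fold enrichment, the 4 such with an ETS match and 2 with a CTCF or AP-1 match in the peak, and members at the listed genes, up to 4 per list. The members, lists and patterns were chosen with earlier results of these data known. Alternatives were other overlaps, TSS distances, q limits, equal list lengths, windows, patterns and strata. The scripts (Python 3.11.15, scipy 1.17.1, pysam 0.24.0) were tested on simulated data. A named region of the strongest members and one of the mesenchyme list are not reported here.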

Additional observations from a re-analysis of the deposited data

How the results depend on the processing

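The 25 results gave 236 values under 15 alternative settings, and 203 of these kept their direction and their side of the threshold, or, for values without one, stayed within counting error or 1.5 times. The strongest change came with equal list lengths, when the 14925 peaks of lowest q were taken from each list: 1544 regions met the rule, 520 with set 2 alone and 547 with both sets. The TGF-β list of the control cells was thereby cut from 28754 peaks. With the full lists only 853 regions met the rule, so the others among the 1544 overlapped a TGF-β peak of the full list. This setting thus also changed which regions counted as lost. The shares of lost regions called again were then 30.9% with set 1, 32.2% with set 2, 46.6% with either and 16.5% with both, with a median fold enrichment of 8.72 and 22 fragments. The shares with a match became 46.1% for AP-1, 27.0% for ETS, 17.1% for RUNX and 14.1% for CTCF, and the differences from lost regions not called again became 15.3, 4.10, 1.43 and −4.61 percentage points, so that the RUNX and CTCF differences reversed. The differences from regions still called kept their direction but shrank to −18.7, −3.15, −2.75 and 7.22. In 200 bp windows the shares were 25.6% for AP-1, 12.4% for ETS and 6.33% for RUNX, and the AP-1 difference from lost regions not called again was 4.10. With CCGGAAGT as the ETS pattern the share was 1.06% and the differences 0.713 from lost regions not called again and 0.0617 from regions still called; with CCGGAA they were 8.79%, 2.88 and 0.488, so that the second difference reversed with both patterns. Beyond 5 kb of a TSS 2.53% lay in exons. Settings chosen after seeing the data gave 54.3% between genes with the comprehensive annotation, 36.2% with a CTCF match and a difference of 1.43 from lost regions not called again when 1 base of the pattern was freed, and 20.3% for ETS and −2.29 for the RUNX difference without repeat-masked bases. The cause of these changes was not tested. Summit heights of 10 to 53 fragments limit what a missing call shows. No paired analysis was possible because each group has 1 list and no replicate number.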

Other observations

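The rule left out regions near promoters and on the sex chromosomes. Among autosomal regions within 2 kb of a TSS, 454 of 1136 that were absent from the TGF-β list (40.0%) were called with at least 1 knockdown set, and 11 of 32 such distal regions (34.4%) on X and Y.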
